A study of Homo sapiens with 6 samples.

Results

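The genes described here are the tumour necrosis factor (TNF) superfamily of cytokines and the matching receptor superfamily, measured by RNA sequencing in THP-1, an established line of human monocytic leukaemia. Members were chosen by gene symbol: every row whose symbol starts with TNFSF or TNFRSF, together with TNF, LTA, LTB, LTBR, FAS, CD27, CD70 and NGFR. The rule left out TRAIL (TNFSF10) with its receptors TNFRSF10A to TNFRSF10D, TNFRSF11B, and noncoding rows, 9 rows in all. It gave 35 genes of the 61517 in the table, 15 ligands and 20 receptors. THP-1 cells in every library had been differentiated into macrophages and brought to pyroptosis, a lytic inflammatory cell death, with lipopolysaccharide (LPS) and ATP. The labels put 3 libraries in a group that also received ruxolitinib, an inhibitor of the kinases JAK1 and JAK2 (written Lukotinib in the treatment field), and 3 in a group with no drug, called control. Both groups were stimulated, so each value below compares drug with no drug under LPS and ATP. The sources used here do not give the differentiating agent, the dose of the drug or the exposure times.

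Ligands of this superfamily are mostly membrane proteins that assemble as trimers, and several are cut from the cell surface by proteases. Their signalling receptors either carry a death domain, which recruits adaptors such as TRADD and FADD, or bind TRAF proteins directly. Both routes can lead to NF-kB and MAP kinase signalling. Macrophages are a main source of TNF and of BAFF (TNFSF13B), the survival factor of B cells, while many of the co-stimulatory receptors are known from lymphocytes.

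Promoter sequence is shown for the 3 members with the smallest adjusted p-values. Of these, TNFSF13B and TNFSF14 fell with ruxolitinib and TNF rose. Each run is the 250 bases before a start of the gene in RefSeq, 5′ to 3′ on the gene's strand, on GRCh38. For TNFSF13B, TNFSF14 and TNF in turn these are chr13:108269379-108269628 (plus strand), chr19:6670161-6670410 (minus strand) and chr6:31575315-31575564 (plus strand). The TNFSF13B and TNFSF14 windows lie inside the gene spans that GENCODE gives, and other starts of a member were not searched. Capitals mark matches on either strand to 3 motifs: the STAT dimer motif GAS (TTCNNNGAA, its own reverse complement), the interferon-stimulated response element (ISRE) and the NF-kB motif.
TNFSF13B: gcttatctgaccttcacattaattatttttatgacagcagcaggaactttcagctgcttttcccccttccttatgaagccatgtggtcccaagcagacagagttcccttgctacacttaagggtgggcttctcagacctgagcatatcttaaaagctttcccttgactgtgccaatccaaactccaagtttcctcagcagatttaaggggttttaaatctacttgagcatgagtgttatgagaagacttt
TNFSF14: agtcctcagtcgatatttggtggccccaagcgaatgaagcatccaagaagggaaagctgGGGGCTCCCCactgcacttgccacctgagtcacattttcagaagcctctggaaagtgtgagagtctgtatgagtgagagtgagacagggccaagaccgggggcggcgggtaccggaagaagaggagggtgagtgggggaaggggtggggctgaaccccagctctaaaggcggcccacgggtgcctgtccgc
TNF: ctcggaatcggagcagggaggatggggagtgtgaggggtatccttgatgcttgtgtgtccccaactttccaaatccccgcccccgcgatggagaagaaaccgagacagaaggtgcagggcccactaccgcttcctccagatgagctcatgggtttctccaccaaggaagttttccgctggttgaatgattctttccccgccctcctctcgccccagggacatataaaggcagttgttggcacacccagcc

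The TNFSF13B and TNF windows held none of these letters, and the TNFSF14 window held 1 NF-kB match, GGGGCTCCCC, on the gene's own strand 191 to 182 bases before the start. Of the 35 members, 26 had an entry in the promoter table, 18 of them high enough to test. GAS matched in 4 of those 18 windows (TNFSF11, LTA, LTB and TNFRSF9) and in 6.57% of all 35116 windows of the same length. ISRE matched in 2 (TNFSF9 and TNFRSF1B) against 3.02% of all windows. The NF-kB motif matched in 4 (TNFSF14, LTB, TNFRSF9 and TNFRSF14) against 5.21%, with the match in TNFRSF9, the gene of 4-1BB, reading GGGAATTTCC. In TNFSF11, the gene of RANKL, the GAS match read TTCAAAGAA. Over all 26 listed members the counts for GAS, ISRE and NF-kB were the same, 4, 2 and 4. The shares of all windows were not limited to tested genes, so the 26 are the closer base for comparison. A match is a string of letters and was not measured as a bound site.

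Libraries held 17757595 to 24533979 counts, and 3 counts, taken as the limit that a count of 0 allows in a library, correspond to 0.119 to 0.169 CPM (counts scaled to the library's size). Such limits cover counting error only. All 8 myeloid markers had a mean of at least 1 CPM, and their summed level ran from 1050 to 1090 CPM in control and from 526 to 586 CPM with ruxolitinib. Of these 8, 7 were called lower and 1, LYZ, higher in the edgeR test described below, beside 16.1% and 13.6% of all tested genes. CD68 and CSF1R were the highest in control, at means of 424 and 391 CPM, and fell to 198 and 176 CPM. Of 9 lymphoid markers, CD3D and CD3E had no count in any library, and only NKG7 and GNLY reached a mean of 1 CPM. The lymphoid sum ran from 6.92 to 8.15 CPM in control and from 3.51 to 4.18 CPM with ruxolitinib. NKG7 was called lower (mean 5.67 CPM in control and 1.49 CPM with ruxolitinib), while GNLY did not pass (1.28 and 1.72 CPM). The 4 stromal, epithelial and endothelial markers summed to 2.19 to 3.74 and 1.94 to 2.19 CPM. The part of these shifts in the results on the superfamily was not tested. In bulk RNA, fewer cells of a state and less RNA per cell cannot be told apart. Separate cultures are not stated for the 3 libraries of either group, so the p-values reflect the spread among these libraries, which may be technical.

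Of the 35 members, 21 passed the filter on low counts and were tested, 12 ligands and 9 receptors. With ruxolitinib, 4 of the 21 rose and 7 fell at an adjusted p under 0.05 (edgeR quasi-likelihood test, adjusted over 14051 genes), and 10 did not pass. Among all tested genes, 13.6% were called higher and 16.1% lower, or 29.7% in either direction. The 4 that rose were all ligands: TNF, TNFSF4, TNFSF8 and TNFSF11. The 7 that fell were the ligands TNFSF13B, TNFSF14 and TNFSF15 and the receptors TNFRSF1B, LTBR, TNFRSF21 and TNFRSF11A. The median log2 fold change was -0.14 over the tested members and -0.01 over all tested genes, and the median size of change was 0.43 and 0.21. Groups did not overlap for 15 of the 21, 5 higher and 10 lower, beside 20.5% and 23.7% of all tested genes (44.3% in either direction). Of the called members 3 (TNFSF13B, TNFSF8 and TNFSF11) changed by 1 or more on the log2 scale, beside 4.06% of all tested genes. With the label's batch number as a block, 4 rose and 4 fell, as TNFSF15, TNFRSF1B and LTBR no longer passed.

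**Figure D1:**
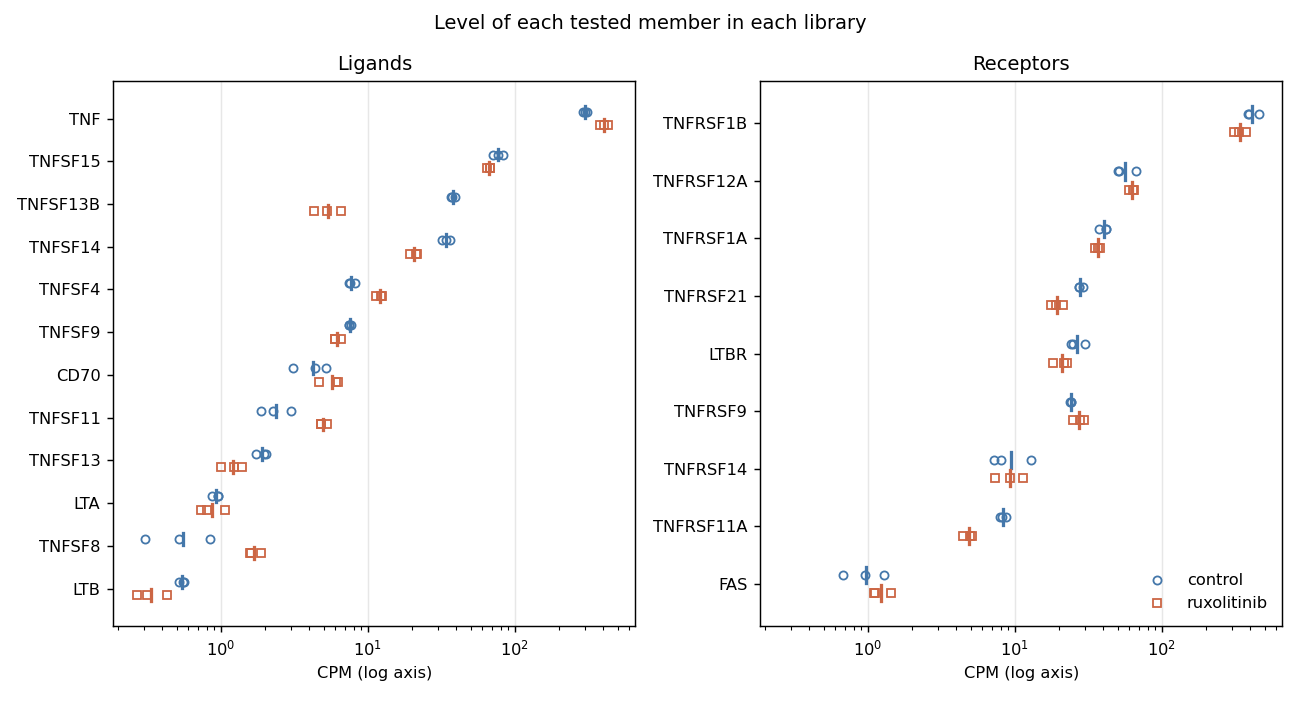
CPM on a log axis in each library for the 12 tested ligands (left) and 9 tested receptors (right); circles are control libraries, squares ruxolitinib libraries, and short bars the group means. TNFSF13B shows the widest separation, at 36.7 to 39.0 CPM in control and 4.30 to 6.54 CPM with ruxolitinib, while the groups of TNFRSF14, TNFRSF12A, TNFRSF1A, LTA, FAS and CD70 overlap.

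TNFSF13B (ENSG00000102524; chromosome 13, 108251240 to 108308484) encodes BAFF, which keeps mature B cells alive. It stood at 39.0, 36.7 and 37.7 CPM in control replicates 1 to 3 and at 4.30, 5.30 and 6.54 CPM in ruxolitinib replicates 1 to 3. Every ruxolitinib library was far below every control library. The fitted change was a 7.02-fold fall (log2 fold change -2.81 ± 0.11, SE, n = 3 per group, adjusted p = 4.87e-09), the largest change among the 21 tested members and the 59th lowest value of the 14051 genes tested. TNFSF13, the gene of the related ligand APRIL, had 1.97, 2.03 and 1.74 CPM in control and 0.996, 1.39 and 1.23 CPM with ruxolitinib. Its groups did not overlap, but it did not pass (log2 fold change -0.66 ± 0.24, adjusted p = 0.0531). Its adjusted p was 0.0429 with library totals as the only scaling and 0.0459 when genes had to reach 1 CPM in 3 libraries. TNFSF13 shares its locus with TNFSF12 and a read-through gene of both, which had 1 and 0 counts over the 6 libraries. These genes overlap on the same strand, and how reads in overlapping genes were counted is not given in the sources used. None of the 3 known receptors of BAFF and APRIL was detected beyond 1 count in all: TNFRSF13B (TACI) had 1 count, and TNFRSF13C (the BAFF receptor) and TNFRSF17 (BCMA) had 0.

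TNF (ENSG00000232810) itself was the most abundant ligand per length in both groups. Its levels were 300.4, 310 and 291 CPM in control and 407, 379.9 and 431 CPM with ruxolitinib, with no overlap. It rose 1.35-fold (log2 fold change 0.43 ± 0.05, adjusted p = 6.65e-05). On chromosome 6 it lies between LTA, 1242 bases to its left, and LTB, 2188 bases to its right, which encode lymphotoxin alpha and beta. LTA had 0.956, 0.875 and 0.955 CPM in control and 0.734, 1.07 and 0.804 CPM with ruxolitinib, and its groups overlapped (log2 fold change -0.09 ± 0.29, adjusted p = 0.848). LTB had 0.563, 0.557 and 0.521 CPM in control and 0.315, 0.428 and 0.268 CPM with ruxolitinib. The LTB groups did not overlap, but at 5 to 14 counts per library it did not pass (log2 fold change -0.69 ± 0.39, adjusted p = 0.215).

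TNFSF14 (ENSG00000125735; chromosome 19, 6661253 to 6670588) encodes LIGHT, a ligand of HVEM and of the lymphotoxin beta receptor. It stood at 32.1, 36.5 and 34.2 CPM in control and 21.3, 21.5 and 19.5 CPM with ruxolitinib. All ruxolitinib libraries lay below all control libraries, a 1.65-fold fall (log2 fold change -0.73 ± 0.07, adjusted p = 1.57e-05). TNFSF9 and CD70 lie on the same stretch of chromosome 19, with gaps of 47.3 kb between them and 57.1 kb from CD70 to TNFSF14. TNFSF9, the gene of the 4-1BB ligand, had 7.48, 7.44 and 7.68 CPM in control and 5.98, 5.94 and 6.60 CPM with ruxolitinib. The groups did not overlap, but the change did not pass (log2 fold change -0.29 ± 0.12, adjusted p = 0.0817). CD70, the ligand of CD27, had 4.39, 3.10 and 5.16 CPM in control and 6.08, 6.26 and 4.67 CPM with ruxolitinib, with overlap (log2 fold change 0.43 ± 0.20, adjusted p = 0.121). Its log2 fold change was 0.74 (adjusted p = 0.036) on removal of the batch 3 pair and 0.16 (0.518) on removal of the batch 2 pair.

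TNFSF15 (ENSG00000181634; chromosome 9, 114784635 to 114806126) and TNFSF8 (ENSG00000106952; 114893343 to 114930595) are neighbours, 87.2 kb apart, and were called in opposite directions. TNFSF8, the gene of the CD30 ligand, was low at 0.844, 0.517 and 0.304 CPM in control and 1.57, 1.61 and 1.88 CPM with ruxolitinib. It had 7 to 15 counts per control library and 30 to 35 per ruxolitinib library, with no overlap. The rise was 3.11-fold (log2 fold change 1.64 ± 0.34, adjusted p = 0.00324), the largest rise among the 21 tested members and the 35th highest value of all genes tested. TNFSF15, the gene of TL1A, stood at 83.4, 76.5 and 70.8 CPM in control and 64.8, 68.0 and 68.2 CPM with ruxolitinib. The nearest libraries of the groups were close, and the fall was small (log2 fold change -0.20 ± 0.06, adjusted p = 0.0327). It no longer passed in 6 alternatives: by DESeq2 (adjusted p = 0.0735), with the block (0.0937), on removal of control replicate 1 (0.196), ruxolitinib replicate 1 (0.144) or ruxolitinib replicate 3 (0.0527), and on removal of the batch 1 pair (0.411).

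TNFSF4 (ENSG00000117586; chromosome 1, 173183734 to 173207313) encodes the OX40 ligand, a co-stimulator of T cells. It stood at 7.43, 7.60 and 8.16 CPM in control and 12.4, 11.4 and 12.3 CPM with ruxolitinib, with no overlap. The rise was 1.56-fold (log2 fold change 0.64 ± 0.10, adjusted p = 5.25e-04). TNFSF18, the gene of the GITR ligand 133 kb away, had 4, 6 and 3 counts in the control libraries and 0 in every ruxolitinib library. With 3 counts over the ruxolitinib group as the limit (0.0532 CPM), the control level of 0.197 CPM was 3.70-fold above that limit. The counting error of the few control counts is not included, so the true fall could be smaller. TNFSF18 was too low for the main test, and with no filter on low counts its adjusted p was 0.0177.

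The genes of RANKL and its receptor RANK, the pair that drives osteoclast formation, changed in opposite directions. TNFSF11, the gene of RANKL (ENSG00000120659; chromosome 13, 42562736 to 42608013), stood at 2.25, 1.87 and 2.99 CPM in control and 4.82, 5.30 and 4.83 CPM with ruxolitinib. Every ruxolitinib library exceeded every control library, a 2.10-fold rise (log2 fold change 1.07 ± 0.19, adjusted p = 0.00111). TNFRSF11A, the gene of RANK (ENSG00000141655; chromosome 18, 62325287 to 62391292), stood at 8.78, 7.96 and 8.16 CPM in control and 5.14, 4.44 and 4.99 CPM with ruxolitinib. It fell 1.70-fold (log2 fold change -0.77 ± 0.12, adjusted p = 5.37e-04), again with no overlap. The log2 ratio of TNFSF11 to TNFRSF11A in CPM, a pair chosen after its values were seen, was -1.96, -2.09 and -1.45 in control and -0.09, 0.25 and -0.05 with ruxolitinib. This within-library ratio, not scaled by length, had means of -1.83 in control and 0.04 with ruxolitinib, so the CPM of the 2 genes drew level. The group means differed by 1.87, and no test was made of the ratio.

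**Figure D2:**
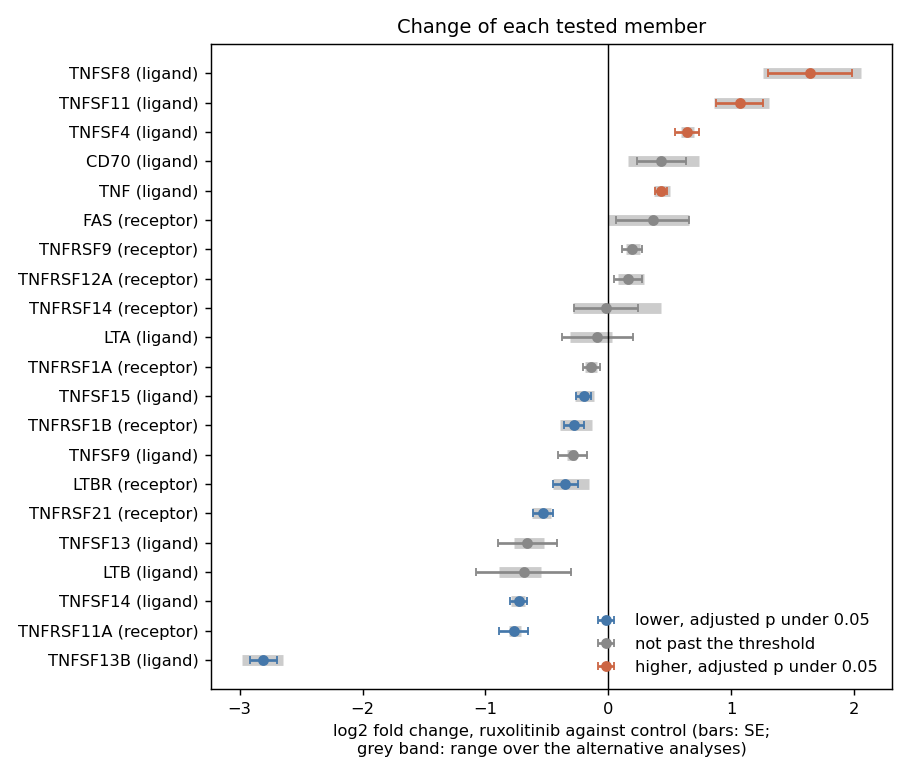
Log2 fold change of ruxolitinib against control for the 21 tested members; points are edgeR estimates with SE, coloured by call, and grey bands span the 15 alternative analyses. TNFSF13B lies lowest at -2.81 and TNFSF8 highest at 1.64, and the bands of LTA and TNFRSF14 cross 0.

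Of the 9 tested receptors of the symbol rule, 0 were called higher and 4 lower, beside 13.6% and 16.1% of all tested genes. CD40, a receptor gene outside the rule, was called higher and is given below. TNFRSF1B and TNFRSF1A encode the 2 TNF receptors, TNFR2 and the death-domain receptor TNFR1. TNFRSF1B (ENSG00000028137; chromosome 1, 12167003 to 12209228) was the most abundant receptor, at 392, 457 and 384 CPM in control and 335, 310.2 and 371 CPM with ruxolitinib. The lowest control and highest ruxolitinib libraries differed little, and the fall was 1.21-fold (log2 fold change -0.28 ± 0.08, adjusted p = 0.0371). It no longer passed with the block (adjusted p = 0.0924), on removal of ruxolitinib replicate 1 (0.111) or 2 (0.131), or on removal of the batch 1 pair (0.121). On removal of the batch 2 pair the change was smaller (log2 fold change -0.13, adjusted p = 0.0222). TNFRSF1A had 37.1, 41.8 and 41.9 CPM in control and 36.6, 35.4 and 38.1 CPM with ruxolitinib, with overlap (log2 fold change -0.14 ± 0.07, adjusted p = 0.143). The log2 ratio of TNFRSF1B to TNFRSF1A had means of 3.35 ± 0.13 in control and 3.20 ± 0.08 in the drug group (SD, n = 3), a difference of -0.14 that did not pass (exact two-sided permutation p = 0.3, where the smallest possible is 0.1).

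TNFRSF21 (ENSG00000146072; chromosome 6, 47231532 to 47309905) encodes death receptor 6. It stood at 29.1, 27.4 and 27.3 CPM in control and 19.1, 17.6 and 21.3 CPM with ruxolitinib, with a clear gap between the groups. It fell 1.45-fold (log2 fold change -0.53 ± 0.08, adjusted p = 3.81e-04). LTBR, the lymphotoxin beta receptor gene (ENSG00000111321; chromosome 12, 6375045 to 6391571), lies 32.9 kb from TNFRSF1A. It had 24.2, 29.9 and 24.99 CPM in control and 21.6, 18.3 and 22.6 CPM with ruxolitinib. Control replicate 2 was the highest and ruxolitinib replicate 2 the lowest library, and the fall was 1.27-fold (log2 fold change -0.35 ± 0.10, adjusted p = 0.0261). It no longer passed with the block (adjusted p = 0.088), on removal of control replicate 2 (0.0584), ruxolitinib replicate 1 (0.0679) or ruxolitinib replicate 2 (0.0756), or on removal of the batch 1 pair (0.0642) or the batch 2 pair (0.148, log2 fold change -0.16).

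The other tested receptors did not pass. TNFRSF9, which encodes the activation-induced co-stimulatory receptor 4-1BB, had 24.3, 24.2 and 23.7 CPM in control and 29.7, 27.8 and 25.04 CPM with ruxolitinib. All 3 ruxolitinib values were above the control values (log2 fold change 0.19 ± 0.08, adjusted p = 0.0721), and without ruxolitinib replicate 3 the adjusted p was 0.0237. TNFRSF12A, the gene of the TWEAK receptor Fn14, had 50.3, 66.4 and 51.2 CPM in control and 59.5, 64.4 and 63.7 CPM with ruxolitinib. Control replicate 2 lay above all others (log2 fold change 0.16 ± 0.11, adjusted p = 0.317). Without that library the value was 0.29 with an adjusted p of 0.00233, and without both libraries of batch 2 it was 0.28 with 3.48e-04. TNFRSF14, the gene of the LIGHT receptor HVEM, had its highest library in control replicate 2 as well, at 7.20, 12.9 and 8.07 CPM in control and 9.34, 7.39 and 11.3 CPM with ruxolitinib. Its log2 fold change was -0.02 ± 0.26 (adjusted p = 0.961). Without both libraries of batch 2 its log2 fold change was 0.43 with an adjusted p of 0.0116. TNFRSF14 overlaps the antisense gene TNFRSF14-AS1, which had 101 counts over the 6 libraries beside 1166 for TNFRSF14, and whether counting used strand is not given in the sources used. FAS, the death receptor gene, was near 1 CPM in every library, from 0.676 to 1.29 CPM in control and from 1.10 to 1.45 CPM with the drug (log2 fold change 0.36 ± 0.30, adjusted p = 0.421).

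**Figure D3:**
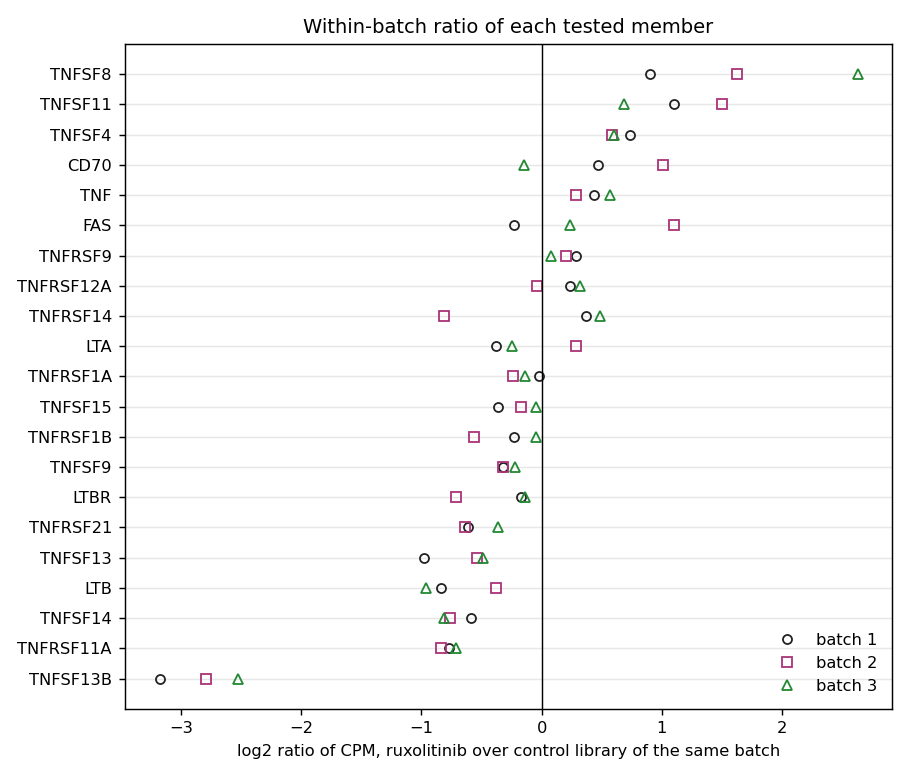
Log2 ratio of CPM between the ruxolitinib and control library of the same batch number, for the 21 tested members in the order of their fold changes. TNFSF13B lies between -3.18 and -2.53 in the 3 batches, and CD70, FAS, TNFRSF12A, TNFRSF14 and LTA have both signs.

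Within batches, 5 tested members (CD70, FAS, TNFRSF12A, TNFRSF14 and LTA) had both signs over the 3 pairs of libraries. The batch ratios of TNFSF13B were -3.18, -2.79 and -2.53 on the log2 scale in batches 1 to 3. Those of TNFSF8 were 0.90, 1.63 and 2.63, the widest spread of a called member. TNFRSF11A stayed between -0.84 and -0.71. TNFRSF1B spanned -0.56 to -0.05 and TNFSF15 spanned -0.36 to -0.05, so batch 3 showed almost no difference for either.

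Per length, TNF ranked first among the 21 tested members in both groups, at 179 ± 5.60 CPM per kilobase of merged exons in control and 242 ± 15.4 with ruxolitinib (SD, n = 3). TNFRSF1B came next at 109 ± 10.6 and 90.0 ± 8.18, then TNFRSF12A at 30.3 ± 4.90 and 33.8 ± 1.44. TNFSF13B was at rank 4 in control (12.4 ± 0.388 CPM per kilobase) and at rank 14 with ruxolitinib (1.76 ± 0.367). TNFRSF1A (10.1 ± 0.685) and TNFSF15 (9.75 ± 0.799) did not differ in control beyond their spread. The same holds in control for TNFRSF21 (7.77 ± 0.275) and TNFSF14 (7.18 ± 0.46), and for LTBR (4.20 ± 0.494) beside each of TNFSF9 (4.52 ± 0.0773) and TNFRSF9 (3.80 ± 0.0512). It also holds for TNFSF4 (1.96 ± 0.0971) and TNFRSF14 (1.51 ± 0.496). TNFSF11 (0.868 ± 0.209) likewise did not differ from its neighbours TNFRSF11A (0.922 ± 0.0475) and TNFSF13 (0.840 ± 0.0681). With ruxolitinib, TNFSF11 (1.82 ± 0.10) stood above TNFRSF11A (0.540 ± 0.0407). In CPM not scaled by length they were level there, at a log2 ratio of 0.04 ± 0.19. The gap thus rests on the merged exon lengths, 2.73 and 9 kb, which join the exons of all annotated transcripts. LTB, FAS and TNFSF8 were the lowest tested members in control, at 0.356 ± 0.0148, 0.229 ± 0.0727 and 0.191 ± 0.0936 CPM per kilobase. FAS and TNFSF8 did not differ there beyond their spread.

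**Figure D4:**
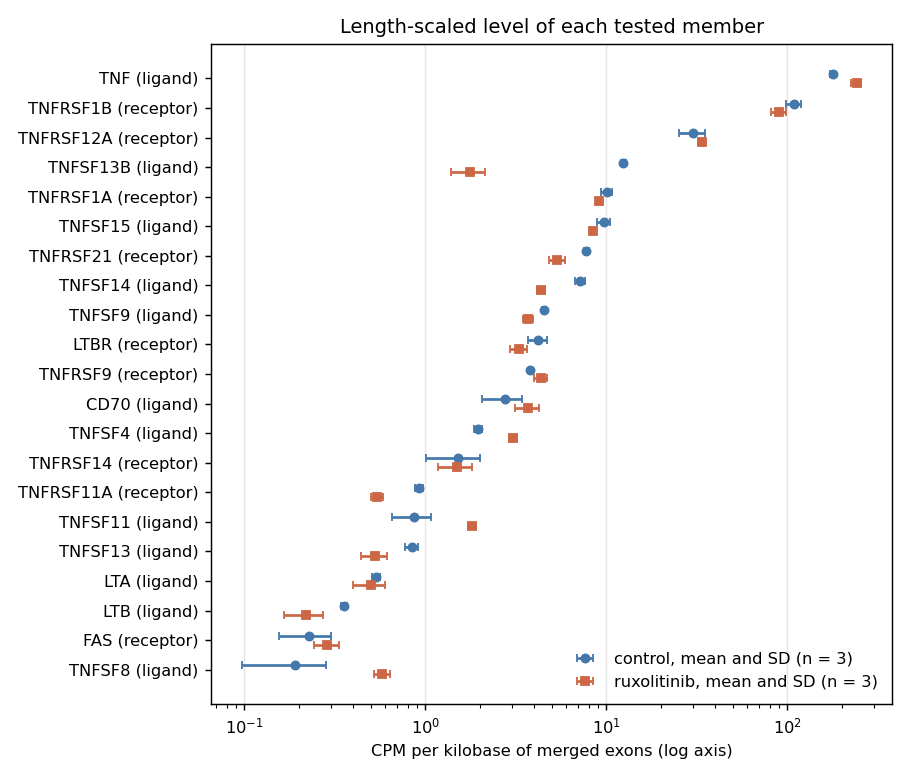
CPM per kilobase of merged exons on a log axis for the 21 tested members, ordered by the control mean; circles are control and squares ruxolitinib, with SD over 3 libraries. TNF, TNFRSF1B and TNFRSF12A hold ranks 1 to 3 in both groups, and TNFSF13B moves from rank 4 to rank 14.

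The remaining 14 members, 3 ligands and 11 receptors, were too low to test. No count was found for TNFSF12-TNFSF13, TNFRSF13C or TNFRSF17 in any library, which allows up to 0.0455 CPM over the control group and 0.0532 CPM over the ruxolitinib group. The other 11 had 1 to 39 counts over all 6 libraries. TNFRSF18, the gene of the GITR ligand's receptor, had the most, with 2, 7 and 4 counts in control and 10, 7 and 9 with ruxolitinib (edgeR without a filter, adjusted p = 0.21). TNFRSF4, the gene of OX40, had 1, 2 and 0 counts in control and 3, 2 and 3 with ruxolitinib. TNFRSF25, which encodes the TL1A receptor DR3, had 8 counts in control replicate 2 and 0 in each of the other libraries. CD27, the receptor of CD70, had 1 count in all, and TNFRSF8, the CD30 ligand's receptor gene, had 8. CD27 overlaps TAPBPL, which had 336 counts, on the same strand. TNFRSF19 had 3 counts in control and 2 with ruxolitinib, NGFR had 2 and 3, TNFRSF6B, a soluble decoy receptor gene, had 0 and 2, and TNFSF12, the gene of TWEAK, had 1 and 0. For OX40 ligand, CD70, the CD30 ligand and TL1A, the ligand gene thus had enough counts to test and its signalling receptor gene did not. BAFF and APRIL were alike in this, as both ligand genes were tested and none of their known receptors given above was.

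The superfamily has members outside the symbol rule, of which CD40 and RELT were tested. CD40, a co-stimulatory receptor gene of antigen-presenting cells, rose from 66.5 ± 2.37 to 79.7 ± 2.52 CPM (SD, n = 3; log2 fold change 0.26 ± 0.05, adjusted p = 0.00231). RELT, at 0.11 ± 0.15 on the log2 scale, did not pass (adjusted p = 0.64). FASLG, the FAS ligand gene, had 4 counts in control and 0 with ruxolitinib, CD40LG had 0 in both, and EDA, EDAR and EDA2R had 21, 3 and 0 counts in control and 24, 3 and 1 with ruxolitinib.

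Of 28 receptor adaptors, kinases and regulators, 27 were high enough to test: 2 rose, 5 fell and the other 20 missed the threshold (median log2 fold change -0.04). That is 25.9% called, beside 29.7% of all tested genes. BIRC3, a ubiquitin ligase recruited to TNFR1 by TRAF2, went up by 0.89 ± 0.06 on the log2 scale, from 69.6 ± 4.62 to 129 ± 3.77 CPM. CYLD, a deubiquitinase, was at -0.59 ± 0.06 on the log2 scale (adjusted p = 2.93e-05), RBCK1, a subunit of the linear ubiquitin ligase, -0.73 ± 0.09 (6.22e-05) and TNFAIP3, the gene of A20, -0.40 ± 0.05 (1.03e-04). Of 8 genes that act in shedding of ligands and receptors, 2 rose, 1 fell and 5 did not pass (median 0.17), so 37.5% were called, beside the same 29.7%. TIMP3, an inhibitor of the TNF-cutting protease, rose by 0.37 ± 0.05 on the log2 scale (adjusted p = 1.63e-04), and the intramembrane protease gene SPPL2A by 0.32 ± 0.05 (3.56e-04). The protease gene ADAM10 fell by 0.24 ± 0.05 (adjusted p = 0.00528), while ADAM17, the main TNF-cutting enzyme, had -0.14 ± 0.05 (0.0638). Of 11 genes that act on the stability of TNF-type transcripts, 2 rose, 2 fell and 7 did not pass (median 0.08), or 36.4% called beside 29.7%. ZFP36L1, an RNA-decay factor gene, fell by 0.83 ± 0.11 (adjusted p = 1.41e-04) and RC3H1, the gene of roquin-1, by 0.26 ± 0.05 (0.00202), while HNRNPD and TIA1 rose by 0.19 ± 0.05 (0.00694) and 0.16 ± 0.05 (0.04).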

How the data were processed

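RNA from 6 libraries was poly-A selected and sequenced, per the labels' protocols. The table the authors deposited holds raw read counts, 1 whole number per gene and library, on genome build hg38 per the submitters' processing notes. Which aligner, counting program, annotation and strand option were used is not given in the sources used here. Counts were fitted with edgeR 4.0.16 in R 4.3.3 (glmQLFit and glmQLFTest, robust; TMM factors; filterByExpr with min.count 10 and min.total.count 15), and p-values were adjusted by the Benjamini-Hochberg method over 14051 genes, with a threshold of 0.05. SE came from the coefficient and its F statistic. CPM were taken over TMM-scaled library totals. Coordinates and merged exon lengths came from GENCODE 29 on GRCh38, where all 35 members were found, and promoters from RefSeq on GRCh38. The procedure was tested on simulated data.

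Members and lists were chosen with earlier results of these data known. Every tested member is named, untested members by their counts, the other superfamily genes all, and of each further list up to 4 genes with the smallest adjusted p (ADAM17 is among them). Libraries that share a batch number did not deviate together (correlations over genes of -0.02, -0.19 and -0.10 in batches 1 to 3), so the pairing rests on the batch label. The unblocked fit was the main one. Alternatives were median-ratio factors, library totals alone, no filter, at least 1 CPM in 3 libraries, DESeq2 1.42.0, the batch as a block, and leaving out each library or each batch pair.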

Additional observations from a re-analysis of the deposited data

How the results depend on the processing

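Of the 11 called members, 8 (TNF, TNFSF4, TNFSF8, TNFSF11, TNFSF13B, TNFSF14, TNFRSF11A and TNFRSF21) kept their call under all 15 alternatives, and 3 (TNFSF15, TNFRSF1B and LTBR) lost it in some. With the replicate block, members called lower went from 7 to 4, and the block changed no other call. Leaving out single libraries or batch pairs gave 8 to 12 called members, 4 to 6 higher and 4 to 7 lower, with 4 lower on removal of ruxolitinib replicate 1 or of the batch 1 pair. Over all genes the same left-out analyses gave 1983 to 5034 calls, 840 to 2553 higher and 1143 to 2481 lower, the lowest without both libraries of batch 1. LTA and TNFRSF14, not called over all 6 libraries, changed sign. LTA ranged from -0.31 to 0.03 over these left-out analyses, with 0.02 on removal of ruxolitinib replicate 1 and 0.03 on removal of the batch 1 pair. TNFRSF14 ranged from -0.29 to 0.43, with 0.28 on removal of control replicate 2, 0.12 on removal of ruxolitinib replicate 2 and 0.43 on removal of the batch 2 pair (there past the threshold, adjusted p = 0.0116), and it was 0.01 with the replicate block. The cause was not tested. The log2 ratio of TNFRSF1B to TNFRSF1A ranged from -0.22 to -0.09 when 1 library was left out, and was -0.14 over the batch pairs with the replicate block. LTA and LTB gave no value with the filter of at least 1 CPM. The 14 untested members had too few counts to test at this depth. TNFSF12, CD27 and TNFRSF6B are among those that overlap another gene on the same strand. Whether this lowered their counts was not tested.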
